A study of Homo sapiens with 12 samples.

Results

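The 10 genes described here are SNAI1, SNAI2, ZEB1, ZEB2, TWIST1, TWIST2 and PRRX1, which encode transcription factors of the mesenchymal state, and VIM, KRT8 and KRT18, which encode intermediate filament proteins. They were taken by symbol from a deposited table of 28576 genes, and each of the 10 was found in 1 row. They were chosen by name with earlier results of the same data known. The difference of SNAI2 with Dox and the differences of PRRX1 and KRT18 with OHT were among the values that led to the choice, so these are described without a test. Tests of SNAI2, PRRX1 and KRT18 in other comparisons use some of the same libraries, so their p-values are not independent of the choice.

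The cells were SHEP, an adherent human neuroblastoma line. All of them carried a MYCN-ER fusion, in which a hormone-binding domain keeps the MYCN oncoprotein inactive until 4-hydroxytamoxifen is added, and a doxycycline-inducible short hairpin RNA against TCEAL1, which encodes a nuclear protein related to the elongation factor TFIIS. Poly(A) RNA was sequenced in 12 libraries, 3 in each of 4 groups. OHT_Dox cells had both 200 nM 4-hydroxytamoxifen and 1 µg/ml doxycycline, OHT cells had only 4-hydroxytamoxifen, Dox cells had only doxycycline, and Ctrl cells had neither. The labels give no treatment times and no cells without the fusion or without the hairpin, so the action of each compound itself and that of the fusion or hairpin cannot be told apart. They number the replicates without saying whether these were separate cultures, so the p-values reflect only how these libraries vary, which may be technical.

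In an epithelial to mesenchymal transition, cells give up epithelial junctions and keratin filaments and take on vimentin filaments and a motile form. Zinc finger factors of the SNAIL and ZEB families repress epithelial genes such as CDH1 through E-box sequences, and the basic helix-loop-helix factors of the TWIST family and the homeobox factor PRRX1 act beside them. In neuroblastoma, whose cells derive from the neural crest, SNAI2, PRRX1, TWIST1 and VIM are known from the mesenchymal cell state, which differs from an adrenergic state.

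Depth lay between 44466458 reads in OHT_Dox replicate 3 and 57694970 reads in Ctrl replicate 3. TCEAL1, the target of the hairpin, stood between 1.73 and 2.74 CPM (reads of a gene per 1000000 reads of the library) in the 6 libraries with Dox and between 8.23 and 10.7 CPM in the 6 without. CDH2, a mesenchymal cadherin, averaged 147, 151, 140 and 133 CPM in OHT_Dox, OHT, Dox and Ctrl libraries. CDH1, its epithelial counterpart, averaged 0.244, 0.367, 0.346 and 0.456 CPM in the same groups. The 7 epithelial defining markers found in the table, of 8 listed, summed to between 1.51 and 3.46 CPM in a library. The 6 endothelial markers found, of 7 listed, summed to at most 0.833 CPM in a library. Of the haematopoietic markers CD68 passed the filter, with group means between 21.4 and 23.9 CPM.

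Differences are given as log2 fold change ± standard error (SE), computed by limma on log2(CPM + 0.5) and fitted to the 18674 genes with at least 0.5 CPM in at least 3 libraries. The p-values are two-sided with Benjamini-Hochberg adjustment across those genes, and a gene was called at an adjusted p below 0.05. All 10 genes passed the filter. Where the libraries of groups are said to lie apart, the share of all genes that do so was not counted. Since each library holds the pooled RNA of many cells, fewer cells with a transcript and less of it in each cell cannot be told apart. As CPM values are shares of all reads, they do not show a change in the total RNA of a cell.

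Per kilobase of the longest principal transcript, VIM was the most abundant of the 10 in Ctrl libraries at 1360 CPM per kilobase, followed by KRT18 at 505 and KRT8 at 273 CPM per kilobase. Among the transcription factors TWIST1 led with 41.9 CPM per kilobase, followed by PRRX1 with 15.5, ZEB1 with 7.23 and TWIST2 with 5.92 CPM per kilobase. SNAI2, SNAI1 and ZEB2 were the lowest, with 3.89, 3.26 and 2.996 CPM per kilobase. These are group means, and the length is that of 1 transcript a gene.

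**Figure D1:**
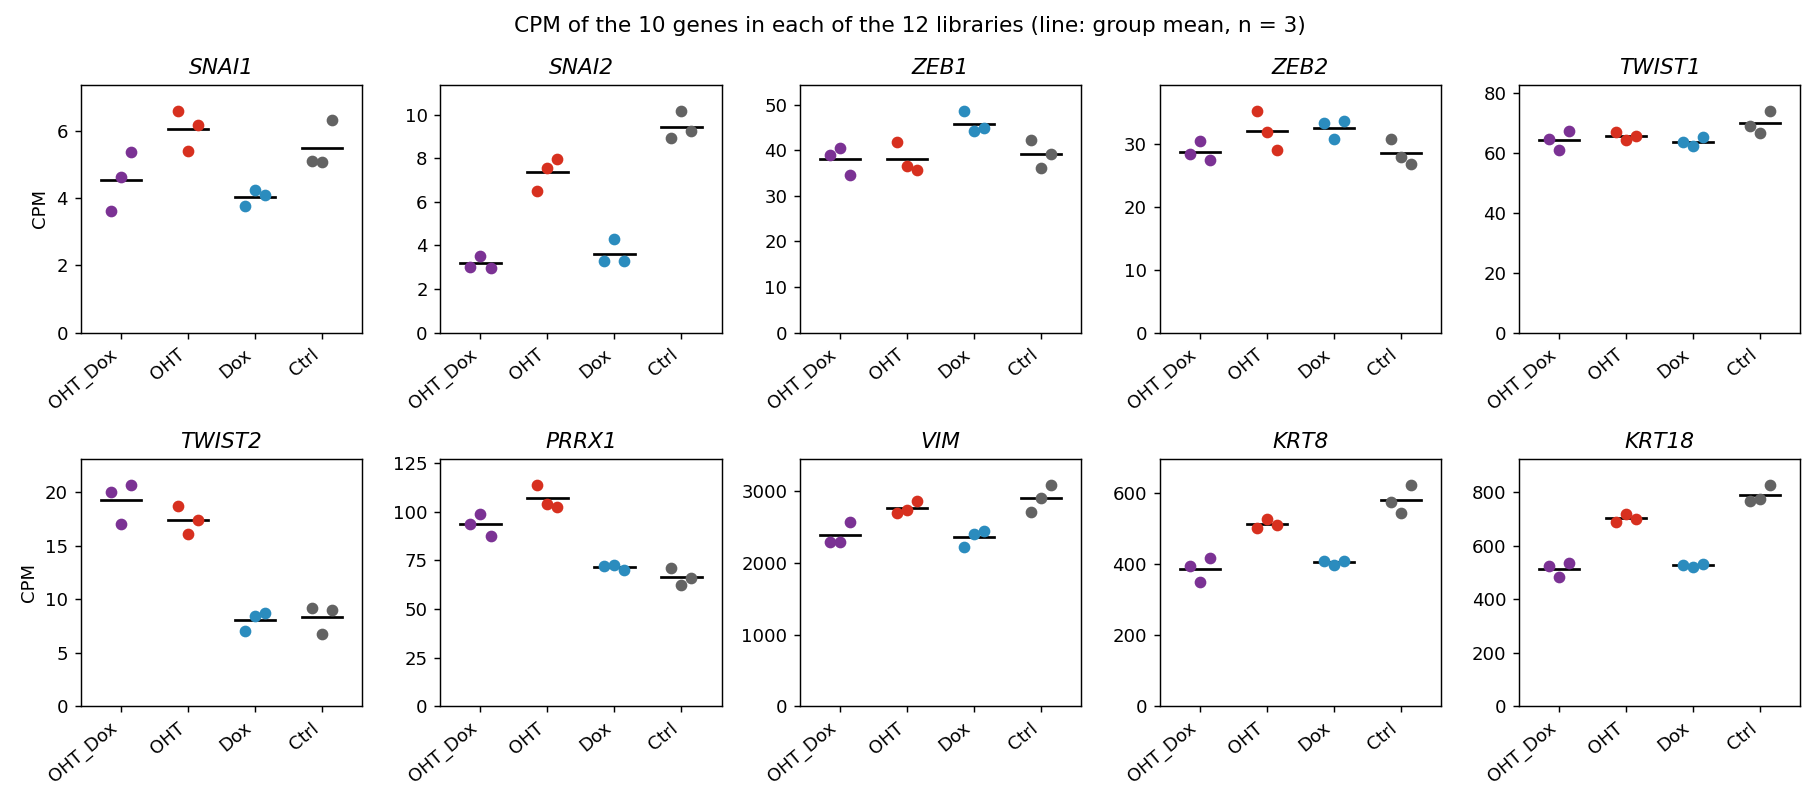
CPM of each of the 10 genes (vertical axes, each from 0) in the 12 libraries, with groups from left to right OHT_Dox, OHT, Dox and Ctrl; points are libraries and lines are means of 3. For SNAI2, VIM, KRT8 and KRT18 the 6 libraries with Dox lie below the 6 without, and for TWIST2 and PRRX1 the 6 libraries with OHT lie above the 6 without. How many of all genes separate in this way was not counted.

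SNAI2, which encodes the zinc finger repressor SLUG, stood lower in all 6 libraries that had Dox than in any of the 6 that had none. It had 3.03, 3.52 and 2.97 CPM in OHT_Dox libraries, 6.51, 7.56 and 7.98 CPM in OHT libraries, 3.29, 4.27 and 3.28 CPM in Dox libraries, and 8.91, 10.1 and 9.26 CPM in Ctrl libraries. The OHT_Dox and Dox libraries overlapped, whereas every OHT library lay below every Ctrl library. These levels rest on 132 to 186 reads in OHT_Dox libraries and on 490 to 572 reads in Ctrl libraries. As a description, the log2 difference was -1.28 ± 0.12 in Dox against Ctrl libraries, a level 0.412 times that of Ctrl. In OHT_Dox against OHT libraries it was -1.09 ± 0.12, or 0.468 times. The difference of these 2 values, the interaction, was 0.18 ± 0.18, also as a description.

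With OHT, the change of SNAI2 did not pass the test. Its log2 fold change was -0.34 ± 0.12 in OHT against Ctrl libraries (limma, adjusted p = 0.0575), and -0.16 ± 0.12 in OHT_Dox against Dox libraries (adjusted p = 0.394). The OHT value lies close to the threshold, and edgeR on the recovered reads called it (adjusted p = 0.0461), as did DESeq2 (adjusted p = 0.0297). Without Dox replicate 2 (adjusted p = 0.0493) and with a pseudocount of 1 CPM (adjusted p = 0.0490) it was called by limma as well, and its adjusted p ranged between 0.0297 and 0.225 over all alternatives.

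SNAI1, the other SNAIL repressor, had 3.62, 4.62 and 5.37 CPM in OHT_Dox libraries, 6.57, 5.40 and 6.16 CPM in OHT libraries, 3.76, 4.24 and 4.08 CPM in Dox libraries, and 5.09, 5.07 and 6.31 CPM in Ctrl libraries. Each Dox library lay below each Ctrl library, and each OHT_Dox library lay below each OHT library with a gap between 5.37 and 5.40 CPM. Neither difference passed the test, at -0.40 ± 0.14 in Dox against Ctrl (limma, adjusted p = 0.0714) and -0.39 ± 0.14 in OHT_Dox against OHT (adjusted p = 0.185). In Dox against Ctrl it was called after TMM rescaling (adjusted p = 0.0487), by edgeR (adjusted p = 0.0443) and by DESeq2 (adjusted p = 0.0163), in a range between 0.0163 and 0.272 over the alternatives. With OHT it changed by 0.13 ± 0.14 against Ctrl (adjusted p = 0.552).

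Within a library, the CPM of SNAI2 divided by that of SNAI1 averaged 0.717 ± 0.15 in OHT_Dox, 1.23 ± 0.21 in OHT, 0.896 ± 0.10 in Dox and 1.74 ± 0.27 in Ctrl libraries (SD, n = 3 each). These ratios are not corrected for transcript length and serve only to compare groups.

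ZEB1 and ZEB2 encode zinc finger homeobox repressors that bind the same E-box as the SNAIL factors. ZEB1 had 38.9, 40.5 and 34.6 CPM in OHT_Dox libraries, 41.9, 36.6 and 35.7 CPM in OHT libraries, 48.5, 44.2 and 44.8 CPM in Dox libraries, and 42.3, 36.1 and 39.2 CPM in Ctrl libraries. The 3 Dox libraries were the highest of the 12, and the other groups overlapped. ZEB1 fell by 0.27 ± 0.08 in OHT_Dox against Dox libraries (limma, adjusted p = 0.0165). Its change in Dox against Ctrl, 0.23 ± 0.08, did not pass (adjusted p = 0.0803), nor did that in OHT against Ctrl, -0.04 ± 0.08 (adjusted p = 0.767). The call in OHT_Dox against Dox was lost without OHT_Dox replicate 3 (-0.20, adjusted p = 0.0943) or without Dox replicate 1 (-0.23, adjusted p = 0.0766), in a range between 0.00487 and 0.0943. Without Ctrl replicate 1, ZEB1 was called higher in Dox than in Ctrl (0.28, limma adjusted p = 0.0281), in a range between 0.0281 and 0.287. In that setting 3182 of all genes were called, beside 1548 with every library kept.

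ZEB2 had 28.4, 30.5 and 27.5 CPM in OHT_Dox libraries, 35.2, 32.0 and 29.1 CPM in OHT libraries, 33.4, 30.8 and 33.7 CPM in Dox libraries, and 30.9, 28.0 and 26.9 CPM in Ctrl libraries. Every OHT_Dox library lay below every Dox library, while OHT and Ctrl libraries overlapped. No difference of ZEB2 passed the test: it was -0.18 ± 0.08 in OHT_Dox against Dox (limma, adjusted p = 0.109), 0.16 ± 0.08 in OHT against Ctrl (adjusted p = 0.160) and 0.19 ± 0.08 in Dox against Ctrl (adjusted p = 0.135).

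The letters CAGGTG, an E-box that SNAIL and ZEB factors are known to bind, and CACGTG, the E-box of MYC proteins, were searched on both strands in the 250 bases before the transcription start, in RefSeq promoters of GRCh38.p14. The table held 6 of the 10 genes, ZEB1 with 7 starts and ZEB2, TWIST2, PRRX1, VIM and KRT8 with 1 each. CAGGTG occurred in 2 of these 12 promoters (16.7%), beside 17.5% of all 35116 promoters listed. Both belong to ZEB1, with matches at 57 bases before 1 start and at 85 and 242 bases before another. CACGTG occurred in 0 of the 12, beside 6.34% of all promoters. A match is a description of these letters and not a bound site. The ZEB1 promoter with a pair of matches is shown for that reason, with CAGGTG or its reverse complement in capitals, followed by those of TWIST2 and KRT8, which moved with OHT and with Dox and hold neither motif.
ZEB1, chr10:31318966-31319215, plus strand: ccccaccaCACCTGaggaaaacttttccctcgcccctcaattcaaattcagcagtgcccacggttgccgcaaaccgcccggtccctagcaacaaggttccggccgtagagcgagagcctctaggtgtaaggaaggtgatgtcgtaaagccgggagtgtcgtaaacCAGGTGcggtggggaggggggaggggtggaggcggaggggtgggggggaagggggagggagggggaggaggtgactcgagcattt
TWIST2, chr2:238847835-238848084, plus strand: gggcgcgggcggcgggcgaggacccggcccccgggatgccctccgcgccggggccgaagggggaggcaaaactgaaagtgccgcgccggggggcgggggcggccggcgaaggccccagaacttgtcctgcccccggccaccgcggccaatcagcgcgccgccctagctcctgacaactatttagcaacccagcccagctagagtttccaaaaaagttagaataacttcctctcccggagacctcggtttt
KRT8, chr12:52926470-52926719, minus strand: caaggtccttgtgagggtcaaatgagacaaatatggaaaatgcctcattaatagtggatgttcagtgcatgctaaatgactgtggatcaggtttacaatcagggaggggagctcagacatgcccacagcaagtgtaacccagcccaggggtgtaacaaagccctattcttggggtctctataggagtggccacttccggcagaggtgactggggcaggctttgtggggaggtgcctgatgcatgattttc

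TWIST2 rose with OHT while TWIST1 did not pass the test in any comparison. Both encode basic helix-loop-helix factors that pair with E proteins such as TCF3 and TCF12. The last 180 coding bases before the stop codon are shown for both, since reads that lie wholly in a shared run can be assigned to either gene. Capitals mark the 21 positions that differ, in GENCODE 29 on GRCh38, where TWIST1 lies on chromosome 7 and TWIST2 on chromosome 2.
TWIST1: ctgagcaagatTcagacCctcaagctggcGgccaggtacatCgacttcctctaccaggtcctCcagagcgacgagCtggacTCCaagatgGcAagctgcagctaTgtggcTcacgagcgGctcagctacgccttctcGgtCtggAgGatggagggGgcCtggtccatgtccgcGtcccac
TWIST2: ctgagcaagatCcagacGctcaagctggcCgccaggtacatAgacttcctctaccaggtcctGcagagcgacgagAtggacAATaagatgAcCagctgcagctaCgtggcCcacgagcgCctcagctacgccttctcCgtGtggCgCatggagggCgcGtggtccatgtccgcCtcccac
The 2 stretches are 88.3% identical and share no run longer than 20 bases. Between the whole transcripts of 1666 and 1404 bases, the longest shared run is 23 bases.

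TWIST2 had 20.03, 17.0 and 20.6 CPM in OHT_Dox libraries, 18.6, 16.1 and 17.4 CPM in OHT libraries, 7.06, 8.39 and 8.70 CPM in Dox libraries, and 9.18, 6.77 and 8.996 CPM in Ctrl libraries. The 6 libraries with OHT all lay above the 6 without, and within each of these sets the groups overlapped. TWIST2 rose by 1.03 ± 0.12 in OHT against Ctrl (limma, adjusted p = 2.58e-06), a level 2.04 times that of Ctrl. In OHT_Dox against Dox it rose by 1.21 ± 0.12 (adjusted p = 3.64e-07), or 2.31 times. Dox did not change it past the threshold, with -0.04 ± 0.12 against Ctrl (adjusted p = 0.871) and 0.14 ± 0.12 in OHT_Dox against OHT (adjusted p = 0.671).

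TWIST1 had 64.4, 61.0 and 67.1 CPM in OHT_Dox libraries, 67.0, 64.3 and 65.7 CPM in OHT libraries, 63.5, 62.2 and 65.1 CPM in Dox libraries, and 68.9, 66.6 and 73.7 CPM in Ctrl libraries. Dox libraries all lay below Ctrl libraries, and OHT overlapped Ctrl, as OHT_Dox did each of the other groups. The change of -0.13 ± 0.06 in Dox against Ctrl did not pass the test (limma, adjusted p = 0.158), though DESeq2 called it (adjusted p = 0.0282), in a range between 0.0282 and 0.445 over the alternatives. With OHT, TWIST1 differed by -0.09 ± 0.06 from Ctrl (adjusted p = 0.324). Its partner ratio, the CPM of TWIST2 divided by that of TWIST1 in the same library, averaged 0.299 ± 0.018 in OHT_Dox, 0.265 ± 0.014 in OHT, 0.126 ± 0.013 in Dox and 0.119 ± 0.016 in Ctrl libraries (SD, n = 3 each).

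PRRX1, a homeobox factor of limb and craniofacial mesenchyme, stood higher in all 6 libraries that had OHT than in any of the 6 that had none. It had 93.9, 98.9 and 87.5 CPM in OHT_Dox libraries, 114, 104 and 103 CPM in OHT libraries, 72.0, 72.5 and 70.2 CPM in Dox libraries, and 71.0, 62.3 and 66.1 CPM in Ctrl libraries. Every OHT_Dox library lay below every OHT library, while Dox and Ctrl libraries overlapped. As a description, its log2 difference was 0.68 ± 0.06 in OHT against Ctrl and 0.38 ± 0.06 in OHT_Dox against Dox. With Dox, the changes of 0.11 ± 0.06 against Ctrl (limma, adjusted p = 0.287) and -0.19 ± 0.06 in OHT_Dox against OHT (adjusted p = 0.147) did not pass. DESeq2 called PRRX1 lower in OHT_Dox than in OHT (adjusted p = 0.0371, in a range between 0.0371 and 0.401). The interaction, -0.30 ± 0.09, is built from the differences with OHT and is given as a description.

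VIM encodes vimentin, the main intermediate filament protein of mesenchymal cells. It had 2292, 2289 and 2573 CPM in OHT_Dox libraries, 2692, 2734 and 2858 CPM in OHT libraries, 2223, 2404 and 2450 CPM in Dox libraries, and 2716, 2911 and 3083 CPM in Ctrl libraries. The Dox and OHT_Dox libraries all lay below the others, and OHT overlapped Ctrl. VIM fell by 0.30 ± 0.06 in Dox against Ctrl (limma, adjusted p = 0.0107), a call lost without Ctrl replicate 3 (-0.25, adjusted p = 0.0652, in a range between 1.63e-05 and 0.0652). Without that library 231 of all genes were called there, beside 1548 with it. In OHT_Dox against OHT the change of VIM, -0.21 ± 0.06, did not pass (adjusted p = 0.0931), though DESeq2 called it (adjusted p = 0.0237, in a range between 0.0215 and 0.343). In OHT_Dox against Ctrl libraries VIM fell by 0.28 ± 0.06 (adjusted p = 0.00209).

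The exons of VIM share 641 bases, 12.4% of its exonic length, with the antisense gene VIM-AS1, which stood between 635 and 884 CPM, and the strand setting of the counting is not given in the sources used here. Reads in that stretch may therefore be counted for either gene. A second antisense gene, AL133415.1, shares 619 exonic bases with VIM and stood between 630 and 876 CPM. VIM-AS1 itself changed by -0.24 in Dox against Ctrl libraries, which did not pass the test (limma, adjusted p = 0.0752). Of the 4 overlapping and antisense transcripts tested, edgeR and DESeq2 each called 1 lower in that comparison.

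KRT8 and KRT18 encode the type II and type I keratins that pair into the filaments of simple epithelia. KRT18 had 524, 482 and 537 CPM in OHT_Dox libraries, 688, 720 and 699 CPM in OHT libraries, 529, 519 and 532 CPM in Dox libraries, and 768, 775 and 826 CPM in Ctrl libraries. KRT8 had 396, 348 and 416 CPM in OHT_Dox libraries, 501, 527 and 510 CPM in OHT libraries, 410, 399 and 408 CPM in Dox libraries, and 574, 545 and 621 CPM in Ctrl libraries. For both keratins the 6 libraries with Dox lay below the 6 without, OHT lay below Ctrl, and OHT_Dox overlapped Dox.

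KRT18 fell by 0.58 ± 0.05 in Dox against Ctrl (limma, adjusted p = 1.08e-06) and fell by 0.45 ± 0.05 in OHT_Dox against OHT (adjusted p = 2.26e-05). KRT8 fell by 0.51 ± 0.06 in Dox against Ctrl (adjusted p = 4.83e-05) and fell by 0.41 ± 0.06 in OHT_Dox against OHT (adjusted p = 5.83e-04). With OHT, KRT18 differed by -0.17 ± 0.05 from Ctrl and by -0.04 ± 0.05 in OHT_Dox against Dox, given as a description. KRT8 fell by 0.18 ± 0.06 in OHT against Ctrl (adjusted p = 0.0487), a call at the edge of the threshold that was lost with no filter, after TMM rescaling and with edgeR. It was also lost without any 1 of 9 of the 12 libraries (adjusted p between 0.0526 and 0.215), and held without OHT_Dox replicate 2 or 3 or Ctrl replicate 2. In OHT_Dox against Dox its change of -0.07 ± 0.06 did not pass (adjusted p = 0.431).

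The CPM of KRT8 divided by that of KRT18 stayed between 0.703 and 0.775 in all 12 libraries. It averaged 0.751 ± 0.026 in OHT_Dox, 0.730 ± 0.0020 in OHT, 0.770 ± 0.0045 in Dox and 0.734 ± 0.027 in Ctrl libraries (SD, n = 3 each). The 2 genes lie on opposite strands and their exons share 525 bases in GENCODE 29, 7.63% of KRT8 and 16.3% of KRT18, so part of their reads can be shared. The 24 KRT8 pseudogenes in the table summed to between 11.1 and 17.9 CPM in a library, and the 29 KRT18 pseudogenes to between 3.24 and 5.50 CPM.

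**Figure D2:**
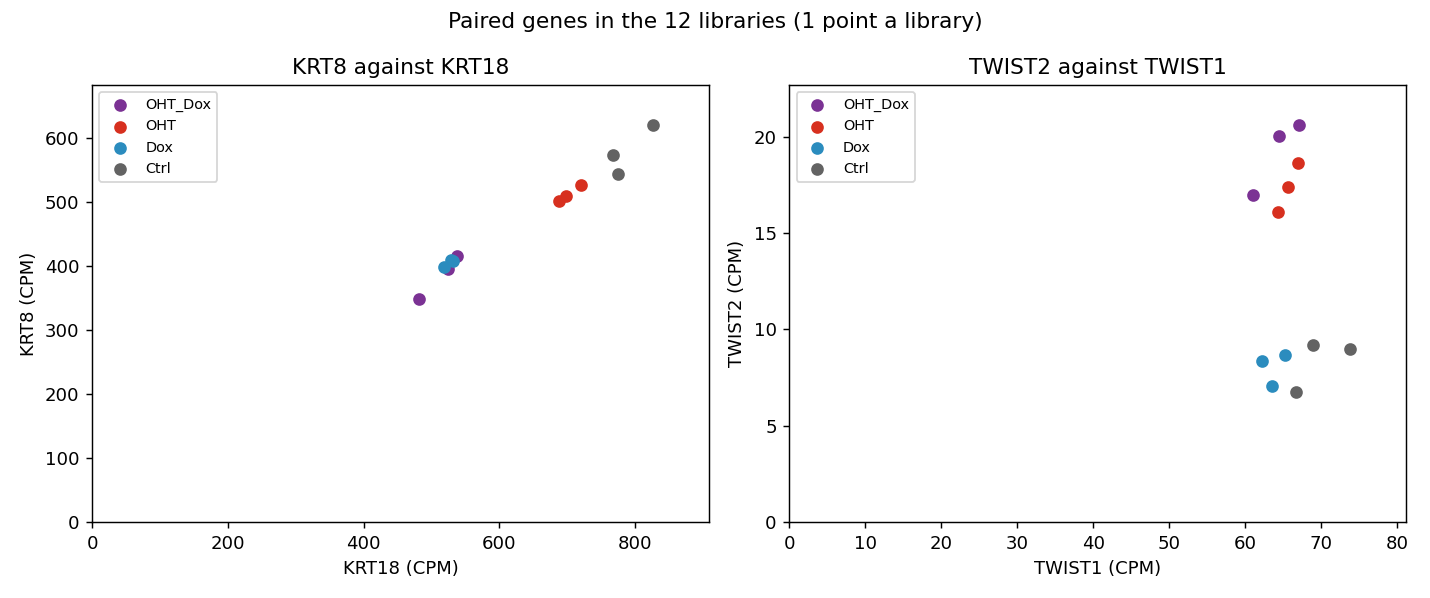
KRT8 against KRT18 (left) and TWIST2 against TWIST1 (right), both axes in CPM from 0, with 1 point for each of the 12 libraries and colour for the group. The keratins lie along 1 line with a KRT8 to KRT18 ratio between 0.703 and 0.775, whereas TWIST2 differs with OHT at TWIST1 levels between 61.0 and 73.7 CPM.

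Set together by comparison, 9 of the genes were tested in Dox against Ctrl and 3 of them were called, each lower (VIM, KRT8 and KRT18), where 8.29% of all genes tested were called, 5.68% higher and 2.61% lower. In OHT_Dox against OHT, KRT8 and KRT18 were called lower, 2 of 9, where 2.1% of all genes were called, 0.509% higher and 1.59% lower. The median log2 fold change of the 10 genes was -0.21 in Dox against Ctrl and -0.20 in OHT_Dox against OHT, where those of all genes were 0.05 and 0.02. Both medians include SNAI2, whose difference with Dox led to its choice.

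In OHT against Ctrl, 2 of the 8 genes tested were called, TWIST2 higher and KRT8 lower, where 21.4% of all genes were called, 12.6% higher and 8.79% lower. In OHT_Dox against Dox, TWIST2 was called higher and ZEB1 lower, 2 of 8, where 26% of all genes were called, 11.5% higher and 14.5% lower. The medians of the 10 genes, -0.06 and -0.01, lay beside those of all genes at -0.01 and -0.03, and include PRRX1 and KRT18, whose differences with OHT led to their choice. In OHT_Dox against Ctrl, with both compounds, 3 of the 7 genes tested were called (TWIST2 higher, VIM and KRT8 lower), where 25.3% of all genes were called, 15% higher and 10.3% lower. OHT and Dox were each set against the same Ctrl libraries, so these comparisons are not independent.

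The interaction of OHT and Dox asks whether a gene responded to 1 compound differently in the presence of the other. None of the 10 genes was called with limma, edgeR or DESeq2. For SNAI2, PRRX1 and KRT18 the interaction is built from differences that led to their choice, so it is a description. Of the others, only ZEB2 had an unadjusted p below 0.05 in limma. Of all 18674 genes, limma and edgeR called 0 and DESeq2 called 1, while 2879 had an unadjusted p below 0.05. For ZEB2 the interaction was -0.34 ± 0.11 (limma, adjusted p = 0.221). Without Ctrl replicate 1, limma called ZEB2 (-0.40, adjusted p = 0.0460), and the interaction of PRRX1 was -0.35. In that setting 1039 of all 18612 genes tested were called for the interaction, beside 0 with every library kept. Over the alternatives the adjusted p of ZEB2 ranged between 0.0460 and 0.474.

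**Figure D3:**
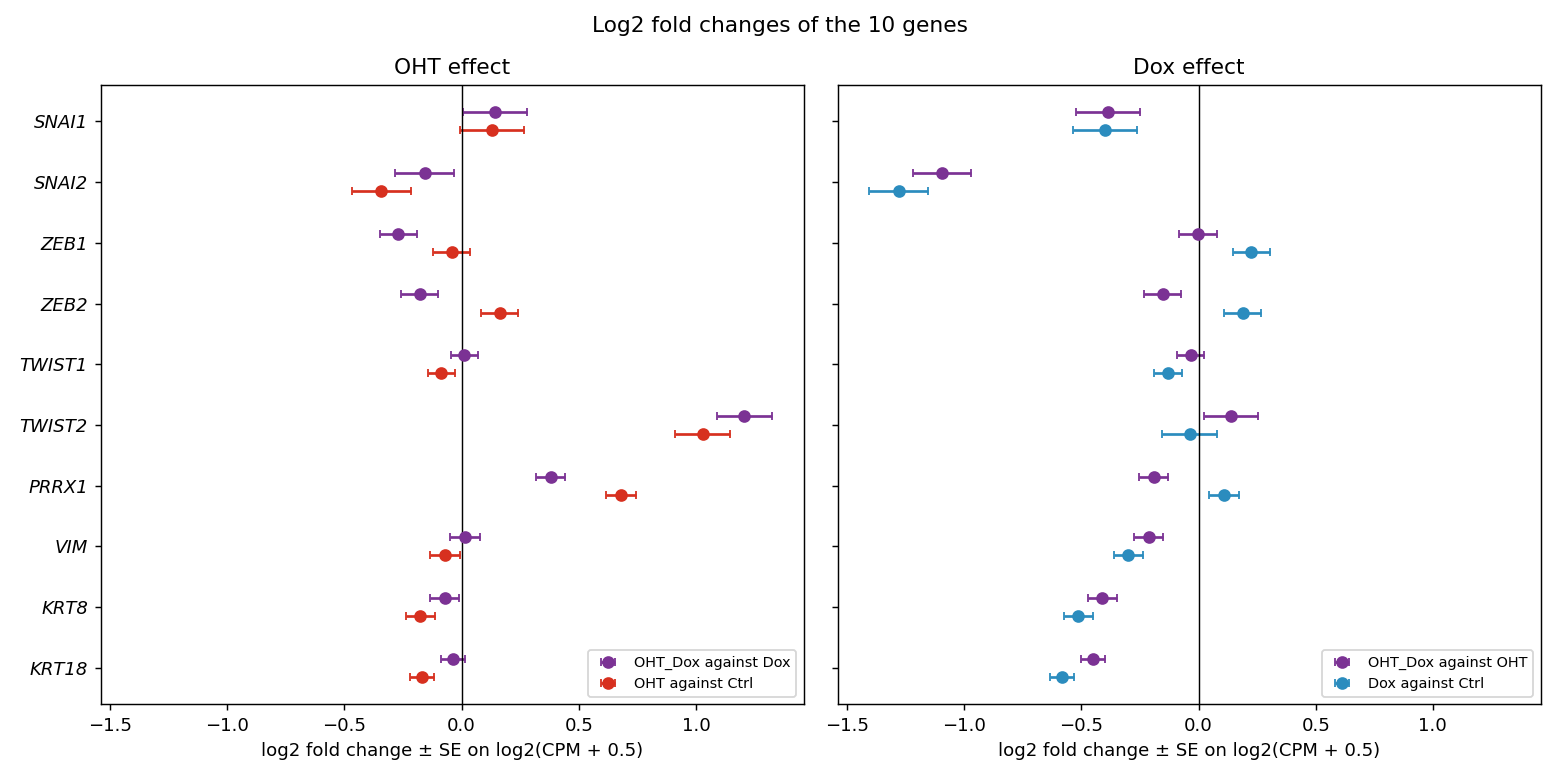
Log2 fold change and SE of each of the 10 genes by limma on log2(CPM + 0.5), for OHT at left (OHT_Dox against Dox above OHT against Ctrl) and Dox at right (OHT_Dox against OHT above Dox against Ctrl). With OHT, TWIST2 (1.21 and 1.03) and PRRX1 (0.38 and 0.68) stand to the right of 0, and with Dox SNAI2 (-1.09 and -1.28) and both keratins stand to the left.

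Genes of the same pathways were counted from lists drawn up by function, to be read beside the shares of all genes called, 21.4% in OHT against Ctrl, 26% in OHT_Dox against Dox, 8.29% in Dox against Ctrl and 2.1% in OHT_Dox against OHT. Of 40 epithelial junction and splicing genes, 22 were tested, and 3 of them were called in Dox against Ctrl, each higher. Among them were the claudin genes CLDN12 (0.21 ± 0.06, limma adjusted p = 0.0312) and CLDN1 (0.24 ± 0.07, adjusted p = 0.0322). By edgeR 0 of the 22 were called in that comparison, and by DESeq2 3, each higher. In OHT_Dox against OHT, limma, edgeR and DESeq2 called 0 of the 22, and 3 had an unadjusted p below 0.05. With OHT, JUP, which encodes plakoglobin, fell by 0.30 ± 0.05 against Ctrl (adjusted p = 2.47e-04), and the tight junction gene OCLN (0.45 ± 0.10) and the desmosomal gene PKP3 (0.36 ± 0.08) rose, the 3 calls of 22. In OHT_Dox against Dox, 1 rose (PKP3, 0.48 ± 0.08) and 4 fell, among them CLDN12 (-0.25 ± 0.06) and JUP (-0.21 ± 0.05).

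Of 33 other keratins, 5 were tested. In Dox against Ctrl none was called by limma, edgeR or DESeq2, and 2 had an unadjusted p below 0.05. The epithelial keratin KRT80 fell by 0.33 ± 0.08 in OHT_Dox against OHT (limma, adjusted p = 0.0300), the 1 call of 5. KRT10, a keratin of the upper epidermis, fell by 0.28 ± 0.08 in OHT against Ctrl (adjusted p = 0.0226). Of 12 other intermediate filament and cytolinker genes tested, NES, which encodes nestin, was the 1 called in Dox against Ctrl and fell by 0.24 ± 0.06 (adjusted p = 0.0197). SYNM, which encodes synemin, rose with OHT by 0.42 ± 0.07 (adjusted p = 3.46e-04), and LMNA, which encodes the nuclear lamins A and C, fell by 0.27 ± 0.07.

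Among 28 mesenchymal adhesion and matrix genes tested, 2 rose and 7 fell in Dox against Ctrl, and 9 were called in OHT_Dox against OHT, each lower. The median of the list was -0.06 and -0.11 in these comparisons, beside 0.05 and 0.02 for all genes. The fibrillar collagen genes COL1A1 and COL5A1 both fell, with log2 fold changes of -0.71 ± 0.07 and -0.62 ± 0.07 in Dox against Ctrl (limma, adjusted p = 5.53e-06 and 3.44e-05). S100A4, a calcium-binding protein gene of motile cells, fell by 0.68 ± 0.08, and the matrix glycoprotein gene SPARC fell by 0.46 ± 0.05. With OHT, 2 rose and 4 fell against Ctrl, and 1 rose and 9 fell in OHT_Dox against Dox. In OHT against Ctrl, ENG, which encodes the TGF-beta co-receptor endoglin, rose by 0.33 ± 0.06 and the fibronectin receptor subunit gene ITGA5 fell by 0.27 ± 0.06.

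**Figure D4:**
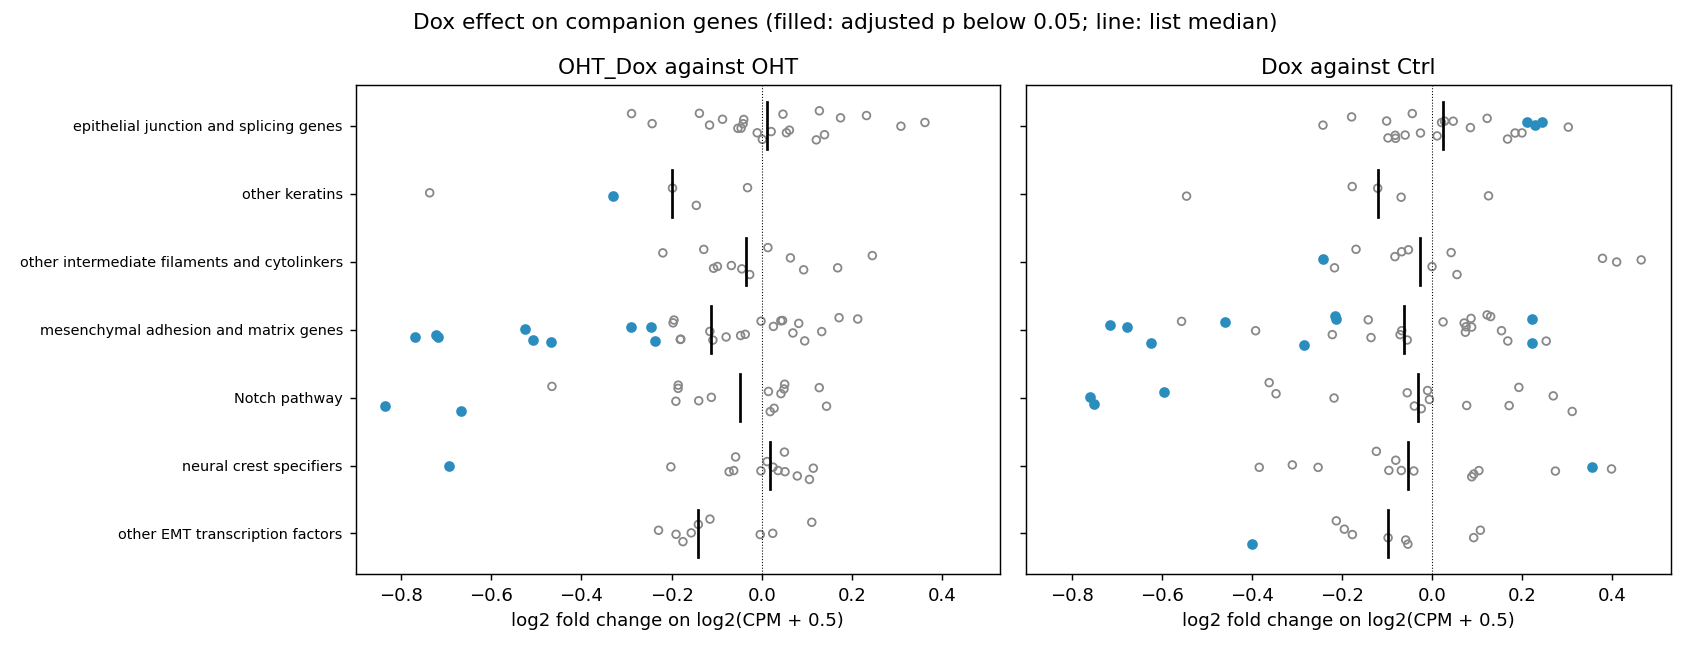
Log2 fold changes on the log2(CPM + 0.5) scale of the tested genes of 7 lists in OHT_Dox against OHT (left) and Dox against Ctrl (right); each circle is a gene, filled where limma called it, and lines mark list medians. The mesenchymal adhesion and matrix genes hold 9 filled circles at left and 9 at right, and the Notch genes 2 and 3.

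Notch signalling is a known inducer of SNAI2. Of 16 Notch pathway genes tested, 3 were called in Dox against Ctrl, each lower, namely the ligand gene JAG1 (-0.76 ± 0.08, limma adjusted p = 2.13e-05) and the target genes HES1 (-0.75 ± 0.09) and HES4 (-0.59 ± 0.13). In OHT_Dox against OHT 2 were called, JAG1 at -0.84 ± 0.08 (adjusted p = 5.03e-06) and HES1 at -0.67 ± 0.09. With OHT against Ctrl, 7 rose and 2 fell. NRARP, a target and feedback inhibitor of the pathway, rose by 1.49 ± 0.08 (adjusted p = 3.25e-10), the receptor gene NOTCH1 by 0.67 ± 0.08 and the coactivator gene MAML3 by 0.81 ± 0.13, while JAG1 fell by 0.55 ± 0.08. In OHT_Dox against Dox, 5 rose and 2 fell.

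Of 9 other transcription factor genes of the transition that were tested, 4 rose and 1 fell in OHT against Ctrl, and 5 rose and 1 fell in OHT_Dox against Dox. The forkhead gene FOXC1 rose by 1.22 ± 0.08 against Ctrl (limma, adjusted p = 2.08e-09) and the GATA factor gene GATA6 by 0.80 ± 0.17. ZNF703, a zinc finger gene, fell by 0.75 ± 0.11 with OHT and fell by 0.40 ± 0.11 in Dox against Ctrl (adjusted p = 0.0390). Of 14 neural crest genes tested, 1 rose and 3 fell in OHT against Ctrl, and 2 rose and 4 fell in OHT_Dox against Dox. The homeobox gene DLX1 rose by 0.67 ± 0.08 against Ctrl (adjusted p = 4.08e-06). SOX9, a neural crest and cartilage factor gene, fell by 0.56 ± 0.11 in OHT against Ctrl and fell by 0.69 ± 0.11 in OHT_Dox against OHT (adjusted p = 0.00148), the 1 call in OHT_Dox against OHT. In Dox against Ctrl the 1 call of 14 was MEF2C, which rose by 0.36 ± 0.09 (adjusted p = 0.0219).

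Corepressors that SNAIL and ZEB proteins recruit were all measured, 19 of 19. In OHT against Ctrl, 5 rose and 1 fell, led by CTBP2 (0.38 ± 0.05, limma adjusted p = 2.78e-05), the ZEB corepressor, and the histone demethylase gene KDM1A (0.34 ± 0.05), and 5 rose and 3 fell in OHT_Dox against Dox. With Dox, limma and edgeR called 0 of 19 in either background, DESeq2 called 1 in OHT_Dox against OHT, and 3 and 5 had an unadjusted p below 0.05 in Dox against Ctrl and in OHT_Dox against OHT. Of 8 TWIST partner and inhibitor genes tested, the E protein gene TCF3 rose by 0.34 ± 0.06 in OHT against Ctrl, HAND2 by 0.24 ± 0.06, and the inhibitor gene ID2 fell by 0.61 ± 0.12 (adjusted p = 0.00116). Of the 8, 2 rose and 3 fell in OHT_Dox against Dox. Of 22 genes for the turnover of SNAIL and TWIST proteins, 3 were called in OHT against Ctrl, each higher, led by the F-box gene FBXO31 (0.85 ± 0.07, adjusted p = 2.88e-08), and 4 rose and 6 fell in OHT_Dox against Dox.

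Markers of the neuroblastoma cell states were counted beside these genes. Of 19 mesenchymal transcription factor genes tested, 2 were called by limma in Dox against Ctrl, YAP1 (0.26 ± 0.07) and its partner TEAD1 (0.36 ± 0.10), both higher. By edgeR 0 rose and 1 fell in that comparison, and by DESeq2 2 rose and 1 fell. In OHT_Dox against OHT limma called 1 of the 19, JUN, which fell by 0.25 ± 0.06 (adjusted p = 0.0330). Neither YAP1 nor TEAD1 was called there. YAP1 averaged 91.8 CPM in OHT_Dox and 88.3 CPM in OHT libraries, and TEAD1 117 and 126 CPM. In OHT against Ctrl 3 rose and 5 fell by limma, and in OHT_Dox against Dox it called 8, each lower. Of 24 adrenergic markers, 7 were tested. Of these, 2 were called in OHT against Ctrl, each higher, 3 rose and 2 fell in OHT_Dox against Dox, 2 were called in Dox against Ctrl, each higher, and 1 was called in OHT_Dox against OHT, higher (limma). The summed CPM of the adrenergic list ranged between 173 and 184 for OHT_Dox libraries, between 153 and 168 for OHT, between 147 and 155 for Dox, and between 141 and 146 for Ctrl. Of 8 Schwann cell markers 3 were tested, and CDH19, a cadherin of Schwann cell precursors, fell by 0.69 ± 0.13 in OHT_Dox against OHT (adjusted p = 0.00465). Their part in the results was not tested.

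Of 13 host or precursor genes of microRNAs that act on ZEB or SNAI transcripts, 2 passed the filter, MIR30A and LINC00472, within which MIR30A lies in GENCODE 29. MIR30A averaged 29.4, 0.106, 29.5 and 0.118 CPM in OHT_Dox, OHT, Dox and Ctrl libraries. It had 4 to 9 reads in a library without Dox and passed the filter only through the groups with Dox, so no test or fold change is given for it. LINC00472 averaged 143 ± 12, 9.33 ± 1.9, 142 ± 0.98 and 9.63 ± 0.93 CPM in the same groups (SD, n = 3 each), and rose with Dox by 3.82 ± 0.10 against Ctrl (limma, adjusted p = 2.56e-15). The hairpin was induced in the same libraries, so transcription of this locus and reads from the hairpin construct cannot be told apart, and these rows are not taken as a measure of the microRNA.

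The genes whose profile over the 12 libraries was most like that of SNAI2, PRRX1 and KRT18 were found among the 11624 genes that averaged 5 CPM or more, by the smallest root mean square difference of centred log2(CPM + 0.5) values. For SNAI2 the nearest was LSM6 (0.144), a gene of RNA processing, followed by TGFBI (0.187), THBS1 (0.192), DIRAS3 (0.195) and COL6A3 (0.199). THBS1, which encodes the matrix protein thrombospondin 1, averaged 413, 938, 485 and 978 CPM in OHT_Dox, OHT, Dox and Ctrl libraries. For PRRX1 the nearest were METTL8 (0.0520), AGPAT5 (0.0543), GJA1 (0.0550), ICK (0.0573) and USP25 (0.0635). GJA1, which encodes the gap junction protein connexin 43, averaged 166, 178, 121 and 115 CPM in the same groups. For KRT18 the nearest of all was its partner KRT8 (0.0428), followed by SPARC (0.0680), KCNMA1 (0.0803), CTSB (0.0873) and TGM2 (0.0882). The points share their libraries, so these distances describe likeness and carry no test.

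**Figure D5:**
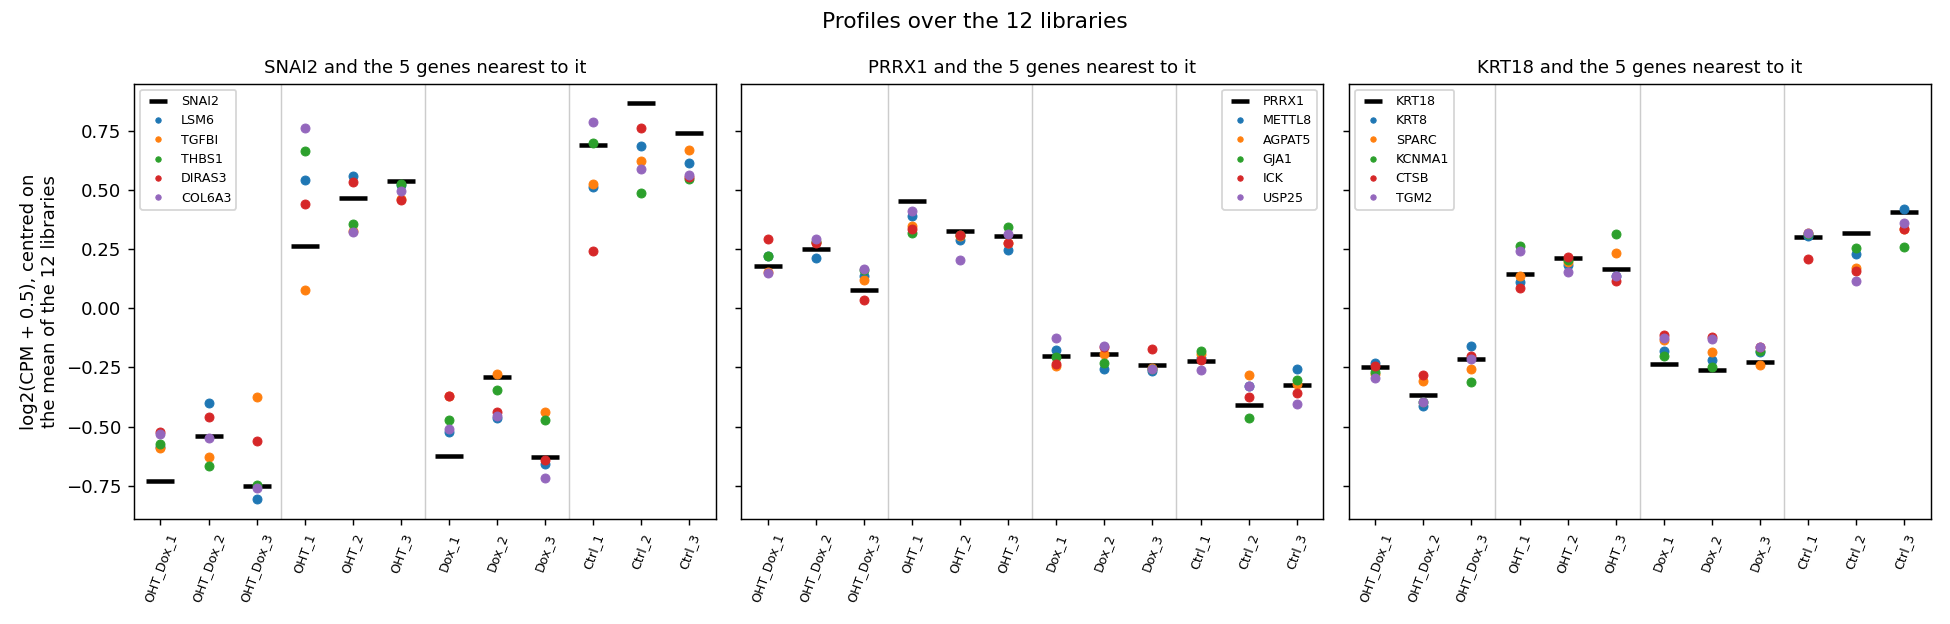
Log2(CPM + 0.5) of SNAI2, PRRX1 and KRT18 (black bars) and of the 5 genes nearest to each (points), centred on the mean of the 12 libraries, with libraries from left to right OHT_Dox, OHT, Dox and Ctrl. The distances at the nearest gene are 0.144 for SNAI2, 0.0520 for PRRX1 and 0.0428 for KRT18.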

How the data were processed

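Poly(A) RNA-seq of 12 SHEP libraries in 4 groups of 3 was used. The authors deposited CPM, read counts scaled to 1000000 per library, for 28576 genes, per the table's name and its sums. Per the submitters' processing notes, the series used the builds hg19 and mm10 and the tools featureCounts, STAR, Bowtie, Bowtie2, DRAGEN and FastQC; which tool made the table, its annotation and its strand setting are not given in the sources used here. GENCODE 29 (GRCh38) served for names, lengths and overlapping genes, and RefSeq promoters are of GRCh38.p14.

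All CPM values were whole multiples of 1 read within 0.01 reads, so read counts were recovered (44466458 to 57694970 per library). Genes with at least 0.5 CPM in at least 3 libraries (18674) were fitted as log2(CPM + 0.5) with limma 3.58.1 in R 4.3.3, with 4 group means, a mean trend and Benjamini-Hochberg adjustment over all genes; the pseudocount understates changes of low genes. The script was tested on simulated data. The alternatives were pseudocounts of 0.1 and 1 CPM, no filter or 1 CPM, TMM rescaling, edgeR 4.0.16 quasi-likelihood and DESeq2 1.42.0 on the recovered reads, a replicate block, and leaving out each library.

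The 10 genes, the 18 lists and the rule for named genes (up to 4 called genes of smallest adjusted p for a list, and 5 nearest profiles) were chosen with earlier results of these data known. Some genes that this rule would name are not reported here.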

Additional observations from a re-analysis of the deposited data

How the results depend on the processing

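In OHT against Ctrl, 2 of the genes were called by limma, 1 with no filter and 1 after TMM rescaling, because KRT8 moved past the threshold, and between 1 and 2 when 1 library was left out. They came to 3 with a pseudocount of 1 CPM and with DESeq2. Among all genes, 3998 were called there by limma, 3449 with no filter, 4019 after TMM rescaling and 4456 by DESeq2. With 1 library left out that number lay between 2817 and 4304. In Dox against Ctrl, 3 were called by limma, 5 by DESeq2, which added SNAI1 and TWIST1, and between 2 and 4 with 1 library left out. The number of all genes called there was 1548 by limma and 2094 by DESeq2. With 1 library left out it lay between 197, without Dox replicate 2, and 3182, without Ctrl replicate 1. In OHT_Dox against OHT, 2 were called by limma, 4 by DESeq2, which added VIM and PRRX1, and 2 with any 1 library left out. Here 392 of all genes were called by limma, 680 by DESeq2 and between 200 and 503 with 1 library left out. In OHT_Dox against Dox, 2 were called, and between 1 and 2 with 1 library left out. Limma called 4862 of all genes there, and between 3562 and 5136 with 1 library left out. For the interaction, 0 were called, and between 0 and 2 with 1 library left out. The 2 were ZEB2 and PRRX1 without Ctrl replicate 1, where the value of PRRX1 is a description and not a test. In that setting 1039 of all 18612 genes tested were called for the interaction. In OHT_Dox against Ctrl, 3 were called under every alternative run, where between 3634 and 5325 of all genes were called. The cause of these changes was not tested.

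With the replicate number as a block, 3 genes were called in OHT against Ctrl, 4 in Dox against Ctrl, 3 in OHT_Dox against OHT, 2 in OHT_Dox against Dox, 3 in OHT_Dox against Ctrl and 0 for the interaction. The block raised the number of all genes called in Dox against Ctrl to 2525, against 1548 without it. That number also went from 3998 to 4528 in OHT against Ctrl and from 392 to 631 in OHT_Dox against OHT. By gene, the block added calls as follows. It added SNAI2 in OHT against Ctrl (adjusted p = 0.0384), ZEB1 in Dox against Ctrl (adjusted p = 0.0331) and VIM in OHT_Dox against OHT (adjusted p = 0.0215). The deviations of same-numbered libraries from their group means correlated between -0.174 and 0.33, above 0.1 in 7 of 18 pairs, and 10 of the 12 libraries correlated best on average with their own number. Between groups, differently numbered libraries exceeded 0.1 in 3 of 36 pairs. The median correlation was 0.069 for pairs of the same number and -0.036 for the others. The labels give no shared origin for a number and not every pair exceeded 0.1, so the block was kept as an alternative, and the own-number matches are a hint from the data, not from the design.

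The log2 difference of SNAI2 was -1.44 in Dox against Ctrl with edgeR and with DESeq2, which use no fixed pseudocount, against -1.28 in limma. Of 1200 recomputed fold changes of single genes, 1166 kept their side of the threshold or, where described without a test, stayed within the replicate spread. None that was called turned round, and the direction of uncalled changes was not compared. Depth limits SNAI1 and SNAI2 most, with 132 to 572 reads of SNAI2 and 194 to 364 reads of SNAI1 in a library.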
